A study of Drosophila melanogaster with 288 samples.

Results

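The 9 genes described here encode the core of the basement membrane in Drosophila melanogaster and its collagen-binding partner SPARC. They were chosen by name: the collagen IV genes Col4a1 and vkg, the laminin genes LanA, wb, LanB1 and LanB2, the nidogen gene Ndg, the perlecan gene trol, and SPARC. All 9 were found by gene identifier among the 17698 genes of the count table, and all 9 passed the filter on low values, a mean of more than 1 cpm (the counts of a gene scaled to the same total in every embryo, 1000000), as did 9606 genes in all.

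Single whole embryos of the strain w1118, raised at room temperature and collected from cages of untreated flies, were profiled at 8 ages after egg laying. The labels name the ages by windows of 1 h, here written 2-3 h, 5-6 h, 8-9 h, 11-12 h, 14-15 h, 17-18 h, 20-21 h and 23-24 h, and each sample is 1 embryo. Every group shares the same genotype and no window carries a treatment, so age is what the design compares, though the windows also differ in their mix of libraries. Of 288 samples, 250 passed quality control, and 97 of these fell in a small cluster away from the developmental path and were set aside. The study set such a cluster aside as well, but its members are not in the labels, so the set here was rebuilt by a rule of its own and differs in size from the study's. The 153 embryos used were 11 at 2-3 h, 24 at 5-6 h, 27 at 8-9 h, 14 at 11-12 h, 21 at 14-15 h, 18 at 17-18 h, 24 at 20-21 h and 14 at 23-24 h.

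A basement membrane is a thin sheet of extracellular matrix that lies under epithelia and wraps muscle, gut, nerve cord and fat body. Laminin heterotrimers, built from an alpha, a beta and a gamma chain, assemble first on the cell surface through integrins and dystroglycan, and collagen IV trimers then form a covalently linked network that nidogen and perlecan tie to the laminin layer. In the fly embryo, migrating blood cells (hemocytes) are known as a large source of collagen IV, while other tissues such as fat body and muscle also make matrix proteins. RNA of a whole embryo was measured, so more cells of a type and more RNA per cell cannot be told apart.

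Depth ranged from 377740 to 24787342 counts on protein-coding genes per embryo, with a median of 6072822, and the lowest median of a window was 1850355 at 23-24 h. The embryos came from 4 libraries, named E1_1, E1_2, E2 and E3, and 23-24 h had embryos from E2 and E3 alone, while 17-18 h had 1 embryo from E3. When each embryo was set against the mean profile of every window over genes outside the lists used here, 119 were most like their own window, and the other embryos were most like another one. By window these others were 5 of 11 at 2-3 h, 2 of 24 at 5-6 h, 2 of 27 at 8-9 h, 0 of 14 at 11-12 h, 6 of 21 at 14-15 h, 2 of 18 at 17-18 h, 10 of 24 at 20-21 h and 7 of 14 at 23-24 h. Results are therefore also given for the 119 embryos most like their own window. That choice rests on expression, so its p-values are too small and serve to show which values hang on the other embryos.

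The genes lie at 8 separate places in the BDGP6 genome, in the coordinates of Ensembl release 115. Col4a1 (FBgn0000299, chromosome 2L, 5029609 to 5037279, plus strand) and vkg (FBgn0016075, 2L, 5012144 to 5028191, minus strand) stand head to head, with 1417 bases between their annotated starts. LanB1 (FBgn0261800) spans 7811438 to 7820771 on 2L, plus strand, and wb (FBgn0261563) spans 14263027 to 14328262 on 2L, plus strand. LanA (FBgn0002526) spans 6203831 to 6218022 on 3L, minus strand, and LanB2 (FBgn0267348) spans 9614914 to 9623980 on 3L, plus strand. Ndg (FBgn0026403) spans 10313891 to 10322104 on 2R, plus strand. trol (FBgn0284408) spans 2470460 to 2545427 on X, minus strand, and SPARC (FBgn0026562) spans 26869238 to 26871995 on 3R, minus strand. Other annotated genes overlap wb, Ndg and trol, but none overlaps the 3′-most exon of a member, which is where this 3′ end assay reads.

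All 9 members differed between the age windows by edgeR's quasi-likelihood test over the windows, with Benjamini-Hochberg adjusted p between 1.95e-29 for vkg and 1.16e-08 for LanA, where 89.7% of all genes tested were called. Since nearly every gene varied with age, the timing of each member says more than the call. The laminin chains LanA, LanB1 and LanB2 were high by 8-9 h and had their highest medians at 11-12 h, except that over the own-window embryos the LanB2 median was 324 cpm at 14-15 h and 296 cpm at 11-12 h. By the medians over all libraries, Ndg was highest at 14-15 h and Col4a1, vkg, trol and SPARC at 17-18 h. None of these was called higher at 17-18 h than at 14-15 h in the main test. For Col4a1 and vkg the order of these windows differed between libraries. By median wb was highest at 8-9 h and low from 14-15 h on.

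**Figure D1:**
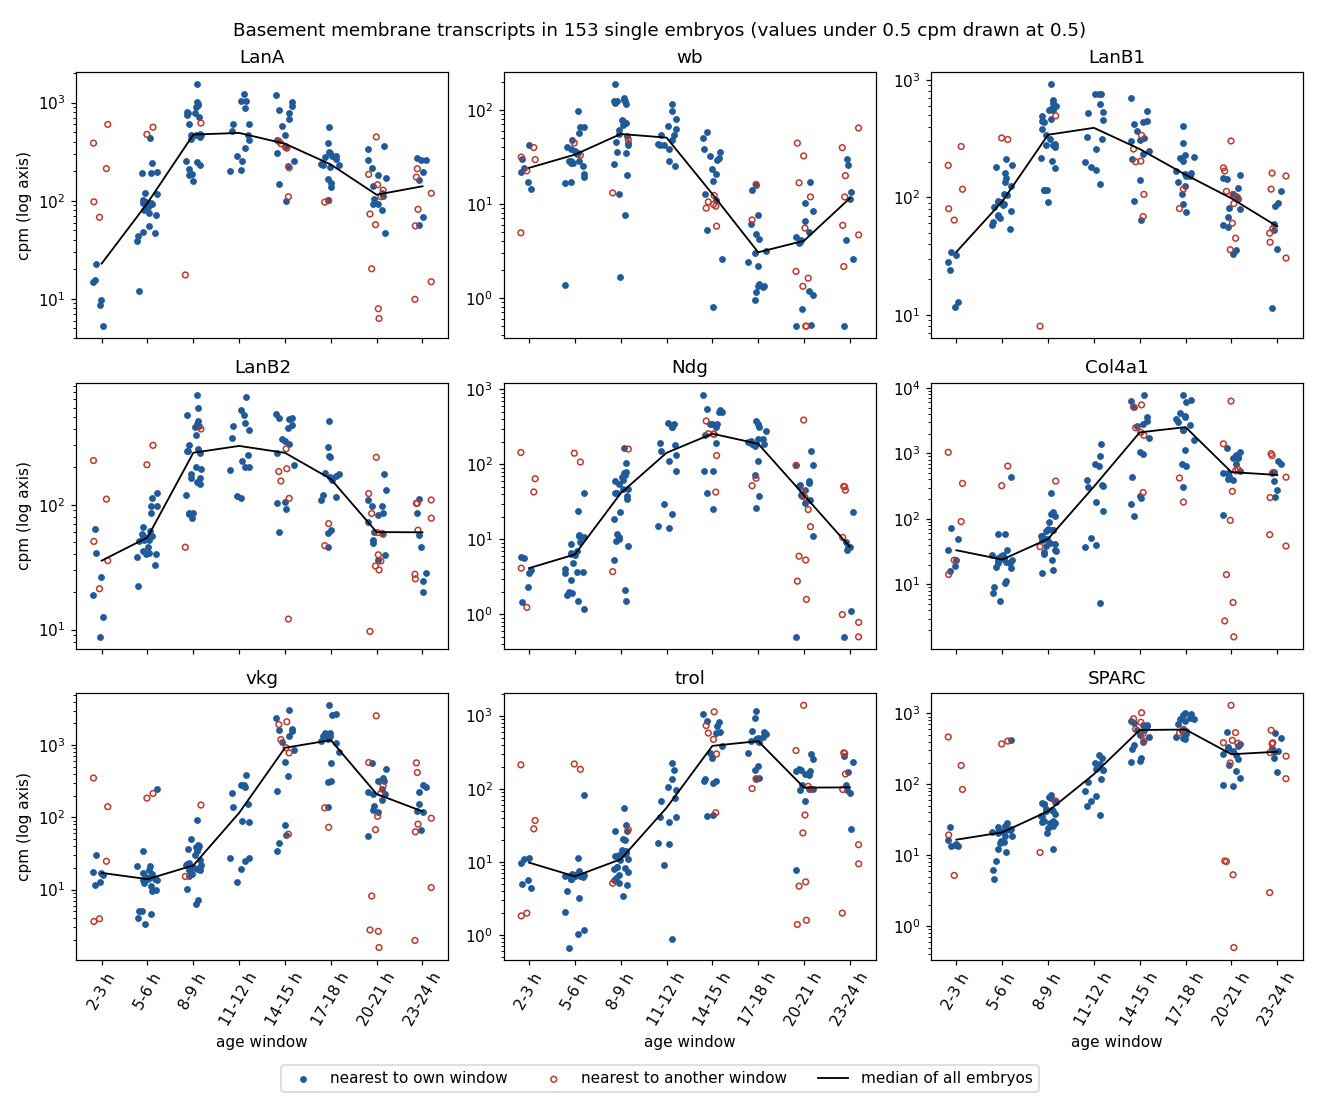
Level of each member in each of the 153 embryos, in cpm on a log axis, by age window, with values under 0.5 drawn at 0.5. Filled blue points are embryos most like their own window, open red points are embryos most like another window, and the black line joins the window medians. The Col4a1 line climbs to a median of 2518 cpm at 17-18 h, and the wb line drops to 3.06 cpm there.

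The laminins were the first members to rise. LanA encodes one of the fly's alpha chains, LanB1 its sole beta chain and LanB2 its sole gamma chain, so both alpha chains share the same beta and gamma partners. The lowest, median and highest LanA levels were 5.27, 22.9 and 600.3 cpm at 2-3 h, 12.1, 95.0 and 562 cpm at 5-6 h, 17.6, 473 and 1549 cpm at 8-9 h, and 200.2, 491 and 1227 cpm at 11-12 h. They were 100.4, 382 and 1200.0 cpm at 14-15 h, 97.0, 234 and 559 cpm at 17-18 h, 6.32, 115 and 447 cpm at 20-21 h, and 9.91, 141 and 270.2 cpm at 23-24 h. LanA was thus low in most of the youngest embryos, high in the middle windows and intermediate at the end, and the ranges of all neighbouring windows overlapped.

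LanB1 and LanB2 followed LanA in time. The LanB1 medians were 34.3, 92.2, 341, 390.3, 258, 156, 98.0 and 56.6 cpm from 2-3 h to 23-24 h, within single-embryo values from 8.00 to 922 cpm. The LanB2 medians were 35.7, 54.7, 261, 296, 260.2, 161, 60.4 and 60.1 cpm over the same windows, within values from 8.75 to 761 cpm. For both genes the 8-9 h, 11-12 h and 14-15 h windows were high, and neighbouring ones among these did not pass the test.

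LanA, LanB1 and LanB2 were called higher at 8-9 h, but over the own-window embryos LanA and LanB1 had a larger change a step earlier, 2.63 and 1.74 on the log2 scale at 5-6 h against 2-3 h, next to 1.73 and 1.19 at 8-9 h against 5-6 h. At 8-9 h, 3 of 9 members were higher than at 5-6 h, where 13.9% of all genes were called higher: LanA by 1.32 ± 0.30 on the log2 scale (value ± SE of the fit, adjusted p = 0.000166), LanB1 by 1.06 ± 0.23 (adjusted p = 0.000119) and LanB2 by 1.30 ± 0.26 (adjusted p = 2.15e-05), all by edgeR's quasi-likelihood test. In the 3 libraries that allow the step, all 9 values of these genes pointed up, between 0.59 and 2.42 on the log2 scale, and the 3 values of library E1_1 passed the threshold while the others did not. None of the 3 calls was lost when any of the 4 libraries was left out. Ndg had 0.97 ± 0.44 (adjusted p = 0.0689). In the embryos most like their own window 4 members were higher, against 18.9% of all genes, with Ndg at 1.77 ± 0.33 (adjusted p = 4.4e-06).

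SPARC was called lower at 8-9 h than at 5-6 h, with a log2 fold change of -0.88 ± 0.34 (adjusted p = 0.0332, edgeR) and 24% of all genes called lower, yet its medians stood the other way, 41.7 cpm at 8-9 h and 21.0 cpm at 5-6 h. A pair of 5-6 h embryos from library E2 that were most like 14-15 h had 370.1 and 406 cpm of SPARC, and 1 embryo most like its own window had 417 cpm. Without the embryos most like another window the log2 fold change was -0.08 ± 0.22 (adjusted p = 0.791). It was 0.02 with limma on the study's normalised values, and without library E1_1, E1_2 or E2 the call was lost as well, at -0.57, -0.77 and -0.36. Col4a1, vkg and trol had the same pattern at this step, with medians of 49.5 against 24.0, 21.7 against 14.0 and 10.8 against 6.30 cpm at 8-9 h against 5-6 h, and fitted values of -0.79, -0.94 and -1.001 that did not pass the test. Without library E3, vkg (-1.16) and trol (-1.51) were called lower too, which makes 3 members.

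Between the youngest windows no member was called. At 5-6 h against 2-3 h, 0 of 9 were higher and 0 lower by edgeR, where 1.56% of all genes were higher and 6.5% lower, and 1 member was higher and none lower at an unadjusted p under 0.05. LanB1 had a log2 fold change of 0.77 ± 0.30 (adjusted p = 0.11) and LanA one of 0.66 ± 0.39 (adjusted p = 0.351). In the 22 embryos at 5-6 h that were most like their own window, LanA lay between 12.1 and 435 cpm, against 5.27 to 22.9 cpm in the 6 such embryos at 2-3 h. Over those embryos LanA was higher by 2.63 ± 0.41 and LanB1 by 1.74 ± 0.35 (adjusted p = 1.02e-07 and 4.03e-05, edgeR), so that 2 of 9 members were called higher, against 6.89% of all genes. Limma on the study's normalised values called the same pair, at 1.48 and 1.29. With the set-aside samples put back at 2-3 h alone, a choice made after seeing the data, 7 members were higher.

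The other alpha chain, wb (wing blister), went its own way. The lowest, median and highest wb levels were 4.92, 24.1 and 41.9 cpm at 2-3 h, 1.36, 33.4 and 97.5 cpm at 5-6 h, 1.65, 55.3 and 188 cpm at 8-9 h, and 25.3, 50.7 and 115 cpm at 11-12 h. They were 0.805, 12.7 and 57.5 cpm at 14-15 h, 0.951, 3.06 and 16.1 cpm at 17-18 h, 0, 4.05 and 44.3 cpm at 20-21 h, and 0, 11.5 and 64.2 cpm at 23-24 h. At 17-18 h every embryo lay under the lowest embryo of 11-12 h, so those windows did not overlap, while neighbouring windows did. wb was also present early, with a 2-3 h median at 43.6% of its 8-9 h median.

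wb was the sole member called lower at 14-15 h against 11-12 h, by -1.20 ± 0.43 on the log2 scale (adjusted p = 0.0215, with 10.9% of all genes lower), and again at 17-18 h against 14-15 h, by -1.66 ± 0.42 (adjusted p = 0.00682, with 3% lower). It pointed down in every library that allows these steps, between -1.91 and -1.41 at the earlier step and between -1.77 and -1.59 at the later one. The calls were fragile to the loss of samples: the earlier was lost without library E1_1 (-1.18, adjusted p = 0.131) or E2 (-1.17, adjusted p = 0.0932), and the later without E1_1 (-1.74), E1_2 (-1.61) or E2 (-1.49). With the own-window embryos, wb kept both calls, with -1.11 and -2.17. Over that set LanA was lower as well at 17-18 h than at 14-15 h, by -0.71 ± 0.27, making 2 members lower against 15.9% of all genes.

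The balance of the alpha chains shifted with age. In this assay each transcript is read at its 3′ end, so counts do not scale with gene length, but a ratio of counts from different genes is not a ratio of molecules, and only its change with age is read here. The median ratio of LanA over wb counts was 0.949 at 2-3 h, 2.68 at 5-6 h, 8.52 at 8-9 h and 7.71 at 11-12 h. It was 26.7 at 14-15 h, 67.0 at 17-18 h, 30.3 at 20-21 h and 11.7 at 23-24 h. The ratio differed between windows (F = 16.3, p = 1e-05, the smallest that 100000 permutations of windows within libraries can give, 3e-05 after adjustment over 3 ratios), and F was 36.0 over the own-window embryos.

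The beta and gamma chains kept closer company. The median ratio of LanB1 over LanB2 stayed between 1.09 at 14-15 h and 1.68 at 5-6 h, and the difference between windows did not pass the permutation test (F = 1.35, p = 0.246). Over the own-window embryos it did (F = 3.32, p = 0.00344), with the highest median ratio, 1.78, at 5-6 h and the lowest, 1.06, at 17-18 h.

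Collagen IV rose later and far more. Col4a1 encodes the alpha1 chain and vkg (viking) the alpha2 chain of the fly's single collagen IV. The lowest, median and highest Col4a1 levels were 14.2, 33.2 and 1040.0 cpm at 2-3 h, 5.58, 24.0 and 641 cpm at 5-6 h, 14.9, 49.5 and 378 cpm at 8-9 h, and 5.28, 311 and 1388 cpm at 11-12 h. They were 109, 2097 and 7773 cpm at 14-15 h, 181, 2518 and 7896 cpm at 17-18 h, 1.58, 519 and 6295 cpm at 20-21 h, and 38.5, 469 and 990.2 cpm at 23-24 h. The embryos at 14-15 h and 17-18 h were the highest as groups, with a spread within each window of over an order of magnitude, and neighbouring windows overlapped. The 1040.0 cpm at 2-3 h came from an embryo most like 17-18 h, and without the embryos most like another window the highest 2-3 h value was 73.8 cpm.

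vkg traced the same curve at a lower level. Its medians were 17.1, 14.0, 21.7, 116, 919, 1174, 211 and 121 cpm from 2-3 h to 23-24 h, within values from 1.58 to 3563 cpm. trol encodes perlecan, a large heparan sulfate proteoglycan that gives the sheet its elasticity. Its medians were 9.73, 6.30, 10.8, 54.7, 386, 448, 103 and 104 cpm over the same windows, within values from 0.669 to 1385 cpm.

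SPARC is a secreted glycoprotein that binds collagen IV and is needed for its normal deposition in the fly. The lowest, median and highest SPARC levels were 5.19, 16.6 and 464 cpm at 2-3 h, 4.63, 21.0 and 417 cpm at 5-6 h, 10.9, 41.7 and 70.8 cpm at 8-9 h, and 37.0, 139 and 260 cpm at 11-12 h. They were 205, 581 and 1020.0 cpm at 14-15 h, 436, 591 and 1001 cpm at 17-18 h, 0, 265 and 1297 cpm at 20-21 h, and 2.97, 287 and 578 cpm at 23-24 h. Every embryo at 17-18 h lay above every embryo at 8-9 h and 11-12 h, and SPARC had the lowest adjusted SD of the members at that age, a measure of spread given further on.

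**Figure D2:**
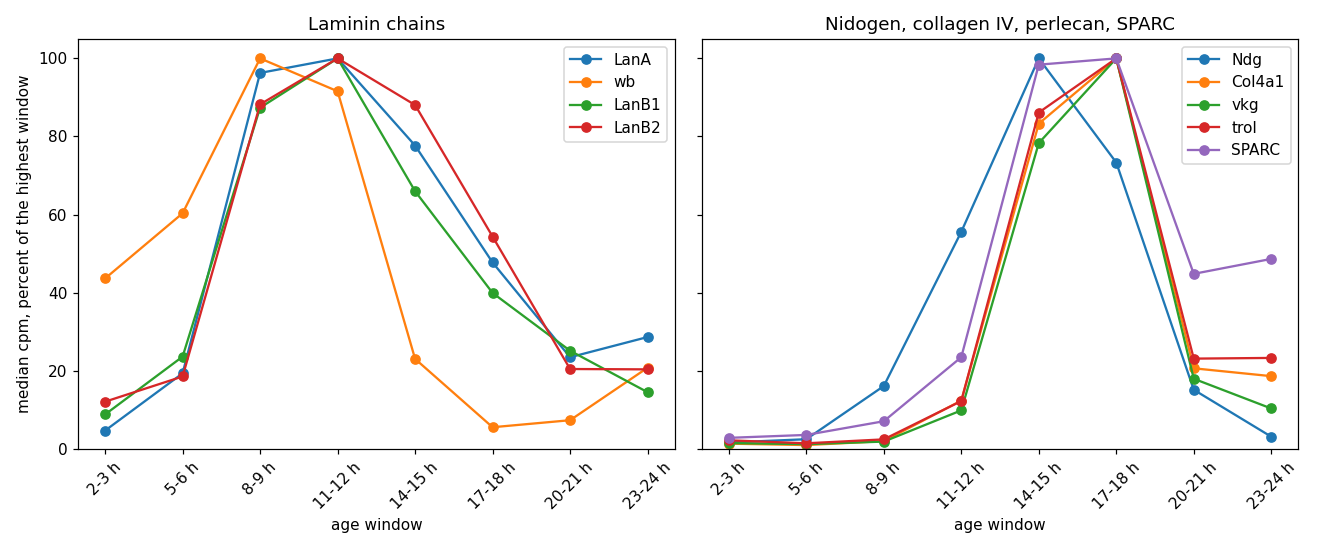
Median level of each member by age window as a percentage of its own highest window median, for the laminin chains (left) and for nidogen, collagen IV, perlecan and SPARC (right). The laminin lines LanA, LanB1 and LanB2 reach their top at 11-12 h, Ndg at 14-15 h and the other members on the right at 17-18 h, while wb starts at 43.6% and tops at 8-9 h.

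The collagen group rose in consecutive steps. At 11-12 h, 5 of 9 members were higher than at 8-9 h, against 15.9% of all genes higher and 8.52% lower. Col4a1 was higher by 2.57 ± 0.47 on the log2 scale (adjusted p = 7.45e-06, edgeR), vkg by 2.34 ± 0.46, trol by 2.39 ± 0.46, Ndg by 1.89 ± 0.45 and SPARC by 1.67 ± 0.38 (adjusted p = 0.000319), while LanA, LanB1 and LanB2 had 0.05, 0.18 and 0.27 and did not pass. All 15 within-library values of the 5 genes pointed up, between 1.32 and 3.04, and the 5 of library E1_1 passed.

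At 14-15 h, 4 of 9 members were higher again than at 11-12 h, against 21.7% of all genes. Col4a1 was higher by 2.75 ± 0.57 (adjusted p = 3.93e-05, edgeR), vkg by 2.93 ± 0.55 (adjusted p = 6.54e-06), trol by 2.69 ± 0.56 and SPARC by 2.35 ± 0.45. All 12 within-library values pointed up, between 1.49 and 4.58, and none of the higher calls of these 2 steps was lost without any 1 library. Ndg had 0.95 ± 0.51 (adjusted p = 0.146).

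At 17-18 h against 14-15 h, 0 of 9 members were called higher, against 1.79% of all genes, with 0 also at an unadjusted p under 0.05. Col4a1 had 0.33 ± 0.48 and vkg 0.40 ± 0.46 on the log2 scale, and neither window stood apart from the other in its range. Within libraries Col4a1 had -0.18 in E1_1, 0.83 in E1_2 and -0.63 in E2. Its median was higher at 14-15 h in E1_1 (1758 against 1124 cpm) and E2 (2720 against 1581 cpm). In E1_2 it was higher at 17-18 h (6170 against 3473 cpm). The vkg medians had the same order in these libraries, and E3 had 1 embryo at 17-18 h. Of the 21 embryos at 14-15 h, 6 were most like 17-18 h. Over the own-window embryos Col4a1 had 0.81 ± 0.38, vkg 0.84 ± 0.37, trol 0.66 ± 0.37 and Ndg -0.24 ± 0.39, and none of these passed. SPARC was higher there by 0.74 ± 0.27 (adjusted p = 0.0294, edgeR), 1 of 9 members against 11.4% of all genes.

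**Figure D3:**
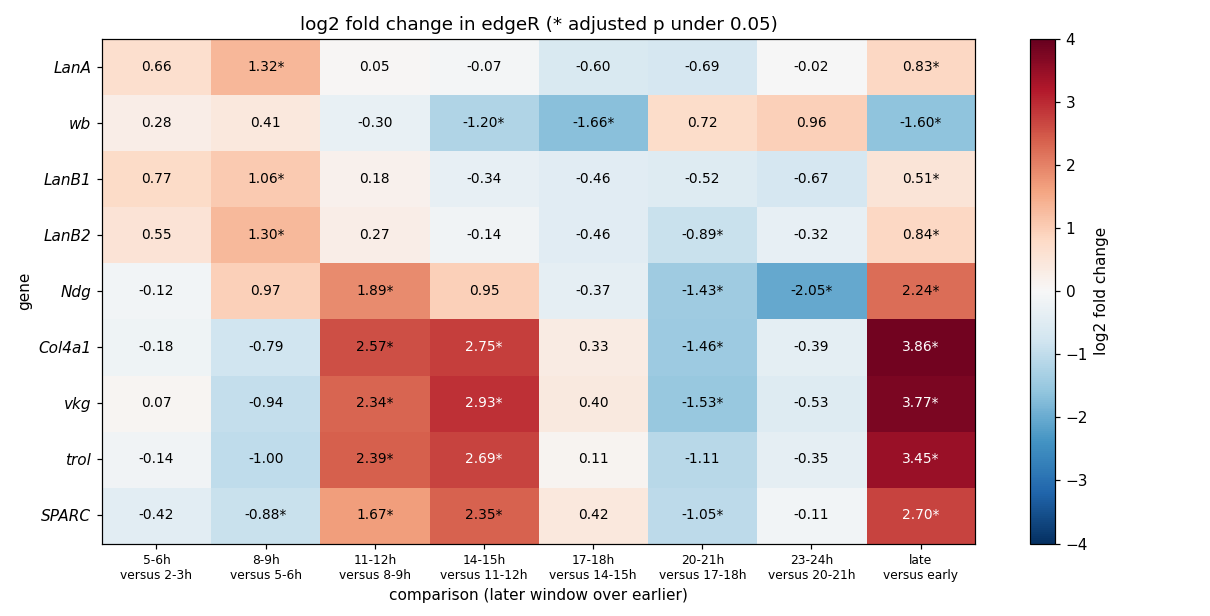
Log2 fold change of each member between neighbouring windows, later over earlier, and of the 4 late over the 2 early windows, from edgeR; an asterisk marks an adjusted p under 0.05. The laminin calls stand in the 8-9 h column, the collagen rise in the 11-12 h and 14-15 h columns and the fall of 5 members in the 20-21 h column, a fall that was lost without library E1_2.

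Ndg encodes nidogen, which binds laminin and collagen IV. Its lowest, median and highest levels were 1.24, 4.13 and 144 cpm at 2-3 h, 1.18, 6.29 and 141 cpm at 5-6 h, 1.53, 41.2 and 163 cpm at 8-9 h, and 14.1, 143 and 359 cpm at 11-12 h. They were 25.5, 256 and 851 cpm at 14-15 h, 26.6, 188 and 381 cpm at 17-18 h, 0, 38.8 and 390 cpm at 20-21 h, and 0, 7.94 and 50.7 cpm at 23-24 h. In time Ndg stood between the laminins and collagen IV, and at the end it was low again. It was the sole member called lower at 23-24 h than at 20-21 h, by -2.05 ± 0.55 (adjusted p = 0.0209, edgeR), against 1.69% of all genes lower and 1.31% higher. The call was lost without library E3 (-1.35, adjusted p = 0.352), and E2 and E3 alone have embryos at 23-24 h.

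After 17-18 h, 5 members fell. At 20-21 h, these 5 of 9 were lower than at 17-18 h, against 6.19% of all genes lower and 15.3% higher: vkg by -1.53 ± 0.45 (adjusted p = 0.0075, edgeR), Col4a1 by -1.46 ± 0.47 (adjusted p = 0.0143), Ndg by -1.43 ± 0.45, SPARC by -1.05 ± 0.37 and LanB2 by -0.89 ± 0.27. No member was higher, also at an unadjusted p under 0.05, where 8 were lower, and the median over the members was -1.05 against 0.21 over all genes. The fall depends on the samples: without library E1_2 none of the 9 passed (Col4a1 -1.03, adjusted p = 0.217), without E3 3 passed, and SPARC was lost without E1_1 (adjusted p = 0.0599) or E2 (adjusted p = 0.0876). Within E1_2 Col4a1 had -2.92 and within E2 -0.35. None passed either when a gene had to reach 5 counts to be called expressed, which leaves 145 embryos. Over the own-window embryos 8 of 9 were lower, all but wb, against 10% of all genes, with vkg at -2.14 ± 0.40 (adjusted p = 1.24e-05).

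Late embryos (14-15 h to 23-24 h) were also set against the early ones (2-3 h and 5-6 h) in a single contrast. By edgeR 8 of 9 members were higher, against 39.2% of all genes, and wb was lower, against 38.2%. Col4a1 was 14.5-fold higher, vkg 13.6-fold, trol 10.9-fold, SPARC 6.48-fold and Ndg 4.73-fold. The laminins differed less: LanB2 was 1.79-fold, LanA 1.77-fold and LanB1 1.43-fold higher, and wb was 3.04-fold lower. LanB1 lost its call without library E1_1 (adjusted p = 0.0625, edgeR). Over the own-window embryos all 9 changes were larger. There Col4a1 was 24.3-fold higher, trol 21.1-fold, vkg 18.2-fold, SPARC 13.15-fold, Ndg 9.24-fold and LanA 4.49-fold. LanB2 was 1.96-fold and LanB1 1.75-fold higher, and wb was 5.12-fold lower.

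The shift from laminin to collagen IV was also read within embryos, a comparison added after the values were seen. The median ratio of Col4a1 over LanB1 counts was 1.19 at 2-3 h, 0.261 at 5-6 h, 0.162 at 8-9 h and 0.647 at 11-12 h. It was 6.99 at 14-15 h, 13.0 at 17-18 h, 6.88 at 20-21 h and 7.02 at 23-24 h. LanB1 counts thus outran Col4a1 counts from 5-6 h to 11-12 h in the median embryo, and Col4a1 counts outran LanB1 counts from 14-15 h on (F = 33.3, p = 1e-05, the smallest the 100000 permutations can give).

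The paired collagen IV genes did not keep a fixed ratio, though it moved little. The median ratio of Col4a1 over vkg was 2.47 at 2-3 h, 1.76 at 5-6 h, 2.08 at 8-9 h, 2.25 at 11-12 h, 2.43 at 14-15 h, 2.32 at 17-18 h, 2.51 at 20-21 h and 3.30 at 23-24 h. The windows differed (F = 3.47, permutation p = 0.00135, adjusted p = 0.00202), also over the own-window embryos (F = 2.36, p = 0.0346), where the 2-3 h median was 1.69. SPARC over Col4a1, added after the values were seen, had F = 2.61 and a permutation p of 0.0498, with a median ratio of 0.242 at 14-15 h against 0.848 at 5-6 h.

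**Figure D4:**
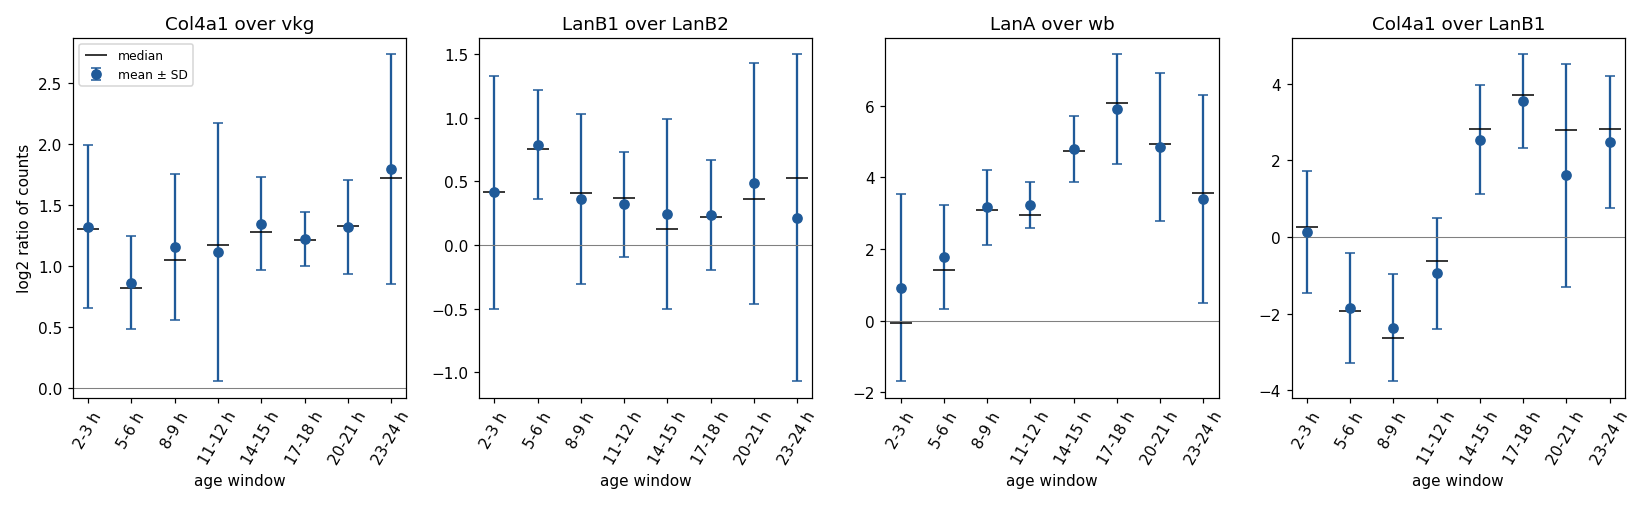
Log2 ratio of counts for 4 gene pairs by age window; points and bars are the mean ± SD over embryos and short black lines the median. The LanA over wb ratio climbs to a median of 6.07 at 17-18 h, Col4a1 over LanB1 rises past 0 between 11-12 h and 14-15 h, and the Col4a1 over vkg and LanB1 over LanB2 medians stay between 0.12 and 1.72.

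Embryos of the same labelled window differed in collagen IV, and the paired genes differed together. With window and library means removed, Col4a1 and vkg correlated across the 153 embryos with r = 0.933 (Spearman's rho = 0.898, permutation p = 1e-05 for both, the smallest possible, and 1e-05 after adjustment over 3 pairs), and r was 0.928 without the 2 embryos farthest from the median. Each was the closest of 9605 other genes to its partner. Within windows, where library means were not removed, r lay between 0.839 at 8-9 h and 0.991 at 17-18 h. All these values include the embryos most like another window, so differences in stage are part of them. Over the own-window embryos, with window and library means removed, r was 0.898.

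LanB1 and LanB2 correlated less closely (r = 0.621, rho = 0.674, permutation p = 1e-05), and each was the second of 9605 genes for the other, though over the own-window embryos neither was among the other's 3 closest (r = 0.638). LanA and LanB1 had r = 0.539 and rho = 0.641 (permutation p = 1e-05), and r was 0.674 and 0.529 for these pairs without the 2 farthest embryos. Both pairs had a lower r in the oldest windows, in values by window from which library means were not removed. LanB1 with LanB2 had r = 0.337 at 20-21 h and 0.109 at 23-24 h, against 0.678 to 0.920 in the younger windows. LanA with LanB1 had -0.0393 and -0.212, against 0.689 to 0.951. Of the 24 embryos at 20-21 h, 10 were most like another window, 4 of them most like 2-3 h. At 23-24 h 7 of 14 were most like another window, 2 of them most like 2-3 h. The part of these embryos in the lower r was not tested.

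**Figure D5:**
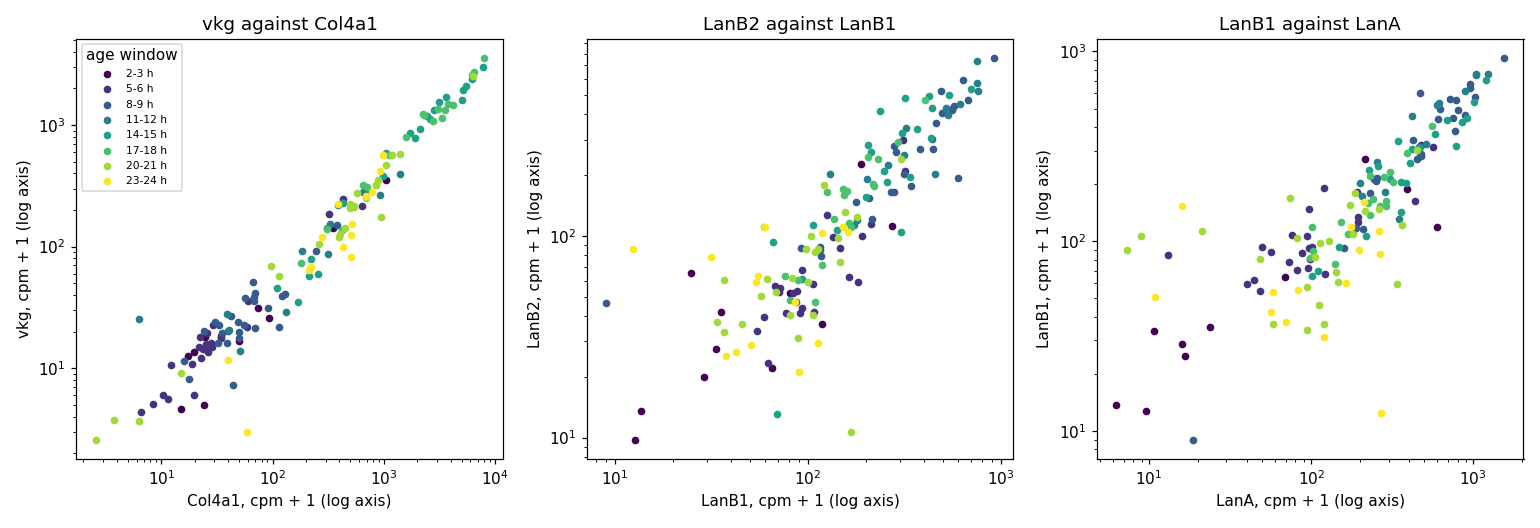
Level of vkg against Col4a1, of LanB2 against LanB1 and of LanB1 against LanA, in cpm + 1 on log axes; each point is an embryo, coloured by age window. The collagen IV points lie along a narrow line, with r = 0.933 once window and library means are removed, and the laminin points scatter more widely.

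The genes most like each member between embryos were named by the highest r over the same values, as a description. For Col4a1 these were vkg, Mhc (0.880, muscle myosin heavy chain) and Tig (0.870, the integrin ligand tiggrin), and for vkg they were Col4a1, prc (0.879, the matrix protein pericardin) and Glt (0.876, glutactin, a basement membrane glycoprotein). trol was closest to Col4a1 (0.851), vkg (0.838) and Mhc (0.828), Ndg to Tig (0.798), Hsp60A (0.749) and fat-spondin (0.736), and SPARC to Tm2 (0.863, muscle tropomyosin), Gapdh2 (0.858) and Eglp4 (0.851). LanA was closest to Atpalpha (0.745), apolpp (0.740, the fat body lipoprotein apolipophorin) and Ppn (0.723, the matrix protein papilin). LanB1 was closest to eIF4G1 (0.624), LanB2 and tud (0.566), LanB2 to ps (0.656), LanB1 and Ppn (0.617), and wb to ed (0.499), l(3)neo38 (0.496) and Vang (0.490). These values come from the same 153 embryos and share their depth, and the names depend on the embryos. Over the own-window embryos LanB1 was closest to Ppn, sima and beta-Spec, LanB2 to CycG, eIF3a and alpha-Spec, LanA to Ppn, Fas3 and NAT1, and wb to alt, sn and l(3)neo38. There the closest to Col4a1 were vkg, Tig and prc, to vkg Col4a1, Glt and prc, to trol Col4a1, Glt and prc, to SPARC Glt, Tm1 and Col4a1, and to Ndg Tig, PCB and fat-spondin.

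The study asked how much single embryos of an age differ. Spread was measured as the absolute deviation of each embryo from its window median on the study's normalised log2 values and tested with limma. At 8-9 h LanA varied less than at 2-3 h, by -1.03 (adjusted p = 0.0234), and 0 members varied more, also at an unadjusted p under 0.05, where 0.375% of all genes varied more and 1.86% less. LanA lost this call over the own-window embryos and with log2 values scaled by TMM. At 23-24 h no member was called against 8-9 h in either direction, while 25.3% of all genes varied more and 2.29% less, and 1 member varied more at an unadjusted p under 0.05, wb by 0.71 (adjusted p = 0.0881).

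The adjusted SD divides a gene's SD within a window by the SD over all embryos usual at its mean level over them. That measure ranks members against all genes as a description and does not correct for the level in the window itself. Col4a1 stood at 1.58 at 11-12 h and 1.70 at 14-15 h, at the 99.3rd and 98.7th percentile, and vkg at 1.18 and 1.42, at the 97.4th and 96.5th. SPARC stood at the other end, at 0.440 at 14-15 h and 0.324 at 17-18 h, at the 11.9th and 8.57th percentile, but it was among the most variable at 2-3 h, 5-6 h and 20-21 h, at the 93.4th, 96.8th and 96.5th. Over the own-window embryos these places held within a few percentiles at 11-12 h and 14-15 h, while SPARC stood at the 42.3rd at 2-3 h, the 93.5th at 5-6 h, the 9.98th at 17-18 h and the 23.7th at 20-21 h. Col4a1 differed between libraries within a window as well: at 14-15 h its median was 3473 cpm in E1_2 and 253 cpm in the 3 embryos of E3.

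The other genes of the pathway were counted in the late against early contrast. There 39.2% of all genes were higher and 38.2% lower, and the median over all genes was 0.03. Of the matrix receptors, 3 of 6 tested were higher and none lower: if (4.20-fold, the alphaPS2 integrin), Itgbn (3.65-fold, the betanu integrin) and mys (2.07-fold, the betaPS integrin). Itgbn had medians of 0.161 and 0.379 cpm at 2-3 h and 5-6 h, near the floor. Of the genes for collagen folding and secretion, 1 of 6 was higher, Crag (2.29-fold), which directs basement membrane secretion in follicle cells, and 2 were lower, PH4alphaEFB (2.00-fold, collagen prolyl hydroxylase) and Strat (1.87-fold). PH4alphaEFB and Plod, the lysyl hydroxylase, had their highest medians at 11-12 h, 223 and 128 cpm, and Plod was not called (adjusted p = 0.264, edgeR). Col4a1 was highest at 14-15 h and 17-18 h, windows that the test did not tell apart. Crag had its highest median at 14-15 h and Strat at 8-9 h, so the list has no common order.

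Of 9 crosslinking and remodelling genes, 7 passed the filter on low values, and these 7 were all higher. The filter takes the mean over all samples, so a gene that is nearly absent early can pass through its later level alone. Mp, a collagen of the XV and XVIII type, was 9.49-fold higher, the metalloproteinase Mmp1 8.68-fold, its inhibitor Timp 3.39-fold and Mmp2 2.44-fold. These folds start near the floor, as the medians of these genes at 2-3 h and 5-6 h lay between 0.566 and 2.58 cpm. The integrin adhesion complex was also higher in 7 of 7, with Vinc (vinculin) at 7.77-fold, rhea (talin) at 3.01-fold, Fermt2 (kindlin) at 1.91-fold and stck (PINCH) at 1.67-fold. Vinc too was near the floor early, with medians of 0.402 and 0.592 cpm at 2-3 h and 5-6 h. Against a background of 39.2% these counts describe the lists and were not tested as sets.

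Markers of cell types were counted in the same contrast, where 39.2% of all genes were higher and 38.2% lower. These counts were not tested as sets either. Of the muscle markers, 4 of 5 were higher late than early, with Mhc 13.3-fold, Mlc2 9.36-fold, Tm2 8.81-fold and sls 5.53-fold higher. Their summed level had a range of 11960 to 51470 cpm at 17-18 h, with a median of 32720, against 422 to 3541 cpm at 8-9 h, with a median of 732. The hemocyte markers split: of 8 listed, 7 passed the filter on low values and eater did not. Of these 7, 4 were higher, led by Hml (12.3-fold) and NimC1 (8.09-fold). Another 3 were lower, among them NimC4 (13.6-fold) and the transcription factor srp (2.40-fold). At 2-3 h and 5-6 h the medians were 0.659 and 0.572 cpm for Hml and 0.289 and 0.417 cpm for NimC1. Their highest medians were 11.1 and 8.49 cpm, so these folds start near the floor. Their summed medians were 113, 329, 541, 279, 115, 94.2, 100.1 and 94.9 cpm from 2-3 h to 23-24 h, low at both ends of the series and highest at 8-9 h. NimC4 made up much of this sum, with medians of 387 cpm at 8-9 h and 11.1 cpm at 14-15 h. The markers srp, crq, Sr-CI and Pvr also had their highest medians at 8-9 h, while Hml had its own at 23-24 h and NimC1 at 17-18 h. Fat body markers were higher in 3 of 4, plin1 4.85-fold, apolpp 4.17-fold and Apoltp 2.63-fold. Their summed medians were 25.4, 65.4, 761, 1005, 959, 499, 360.3 and 277 cpm from 2-3 h to 23-24 h, highest at 11-12 h. Glial markers were higher in 3 of 3, Gs2 5.66-fold, repo 3.95-fold and moody 1.99-fold. The repo medians were 0.482 and 0.280 cpm at 2-3 h and 5-6 h and highest at 11-12 h (23.6 cpm), outside this contrast. They were low again at 20-21 h and 23-24 h, at 0.883 and 0.611 cpm. Egg and maternal markers were lower in 4 of 5, gnu 7.60-fold, png 4.02-fold, osk 3.66-fold and plu 2.72-fold. No marker tested had a median of 0 in any window, and the part of these cell types in the members' levels was not tested.

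Low levels in the youngest embryos were set beside those of muscle genes. In the 6 own-window embryos at 2-3 h, the median was 1.13% of the highest window median for Col4a1, 1.40% for vkg, 1.46% for Ndg, 1.72% for trol and 2.39% for SPARC, and it was 1.04% for Mhc, 1.05% for Tm2, 1.28% for Mlc2, 1.38% for sls and 9.19% for Mef2. The first 4 of these muscle genes encode contractile proteins of differentiated muscle, which embryos of that age do not have, and Mef2 encodes a transcription factor already present in the early mesoderm. The laminin shares were 2.50% for LanA, 6.63% for LanB1, 7.72% for LanB2 and 41.4% for wb. RNA carried over between pooled samples of a library was not tested.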

How the data were processed

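BRB-seq reads only the 3′ end of each transcript and pools barcoded samples into libraries. The authors trimmed and aligned the reads with STAR to BDGP6, counted them with HTSeq on Ensembl release 91, and deposited raw counts per gene without normalisation; every one of the 288 columns matched a sample of the series. The members and lists were chosen with earlier results of these data known. Gene classes and positions came from Ensembl release 115, which matched 17560 genes; the other 138 held 1.43% of counts and were left out. Of 69 listed symbols, 65 were matched, Fermt1 and Fermt2 through older names; the others were not used here.

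Samples were kept at 300000 counts on protein-coding genes or more and 4500 genes above 0. The study's normalisation (voom with quantiles in limma 3.58.1, ComBat over 4 libraries in sva 3.50.0) gave a scaling on which the small cluster was the quadrant with a negative first and positive second dimension; leaving out all listed genes gave the same 153 embryos. One embryo had conflicting ages in its labels and was kept at the 20-21 h of its title. cpm scales each embryo's counts on protein-coding genes to 1000000.

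The main test was edgeR 4.0.16 (R 4.3.3), quasi-likelihood with TMM, age window and library as terms, on 9606 genes, called at an adjusted p (Benjamini-Hochberg) under 0.05. Tests are two-sided except the F tests. Embryos are separate animals from 4 cages, whose assignment is not in the labels. Ratios used counts plus 0.5 in embryos with at least 10 counts on the pair, which left 150 to 153. Correlations used log2 values of TMM cpm plus 1. Permutations numbered 100000. Alternatives covered the embryos, scaling, filters, DESeq2 1.42.0, limma, thinning to 300000 counts, and each library left out or alone (windows with at least 3 embryos). On simulated counts for 14-15 h against 11-12 h over 9606 genes, 10 of 100 genes changed 2-fold and 59 of 100 changed 4-fold were recovered, with 0 false calls, so a missed call says little about small changes. All 9 members are named by rule, with the 2 largest and 2 smallest late against early changes called in each other list and the 3 genes most like each member; Plod was named after its values were seen.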

Additional observations from a re-analysis of the deposited data

Results flagged for a closer look

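The 97 samples set aside as the small cluster enter no main comparison, and members were detected in them. They did enter the gene filter, the study's normalisation and the repeats that put them back. Their median levels were 27.1 cpm for Col4a1, 14.7 cpm for vkg, 10.2 cpm for LanA, 10.2 cpm for LanB1, 8.05 cpm for LanB2, 1.13 cpm for wb, 2.78 cpm for Ndg, 5.63 cpm for trol and 13.5 cpm for SPARC. Each member exceeded 3 counts, the limit that a count of 0 allows, in 52 samples for wb and up to 93 for Col4a1. These samples carry labels of every window, 25 of them 2-3 h and 23 of them 23-24 h. The medians were 1.07% of the highest window median for Col4a1, 2.07% for LanA and 2.05% for wb, with 2.72% for LanB2 the highest of the members, and among the muscle markers the same share was 0.904% for Mhc, 1.10% for Tm2, 1.23% for Mlc2, 1.31% for sls and 3.35% for Mef2.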

How the results depend on the processing

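Of 1539 repeats of the members' tests, 1321 kept direction and side of the threshold. The 1539 include repeats of the test over all windows, which has no direction and so could not change it. A further 82 lost a call, 41 gained one in the same direction and 90 changed sign with a call in neither fit. Col4a1, vkg, trol and Ndg at 8-9 h were among those that changed sign. Another 5 turned with a call (SPARC at 8-9 h against 5-6 h, -0.88, was 0.0188 with limma on quantile and ComBat values and 0.76 within library E3, and at 5-6 h against 2-3 h, with the small cluster at 2-3 h only, Ndg was 1.14, trol 1.05 and SPARC 0.946). The cause was not tested. Counts of members called, out of 9, moved as follows. With the small cluster included, 5-6 h against 2-3 h had 3 higher, 20-21 h against 17-18 h 3 lower, 23-24 h against 20-21 h 4 lower, and the single lower calls at 8-9 h, 14-15 h and 17-18 h became 0; included at 2-3 h only, a setting added after seeing the data, 5-6 h had 7 higher and 8-9 h 3 lower. Over own-window embryos 5-6 h had 2 higher, 8-9 h 0 lower, 17-18 h 1 higher and 2 lower, 20-21 h 8 lower, the LanA spread call became 0 (as with TMM values) and LanB1 over LanB2 passed at F = 3.32. Limma gave 2 higher at 5-6 h and 0 lower at 8-9 h. The single lower call at 8-9 h became 0 with RLE factors, no scaling (5 higher), no gene filter, thinning, DESeq2, or without E1_1, E1_2 or E2, 2 with no library term, and 3 at 5 counts or without E3. At 14-15 h the lower call became 0 with RLE factors or without E1_1 or E2, at 17-18 h 0 without E1_1, E1_2 or E2, at 20-21 h the lower count was 0 at 5 counts or without E1_2 and 3 without E3, and at 23-24 h 0 without E3. Within single libraries few embryos remain: E2 called 0 at every step but 14-15 h (4 higher, 0 lower), E3 called 0 at each step with enough embryos, E1_1 0 higher and 2 lower at 14-15 h and 0 lower at 17-18 h, and E1_2 0 lower at 17-18 h and 2 at 20-21 h.

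Depth is lowest at 23-24 h, where low members such as Ndg and wb rest on few counts, and the libraries there are E2 and E3 alone. The 2-3 h window has 11 embryos, of which 5 were most like another window. No paired analysis was possible because replicate names are library wells and each embryo belongs to 1 window.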
